A study of Homo sapiens with 36 samples.

Results

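The transcription factors described here direct the growth of blood progenitors into granulocytes and monocytes. Their 9 genes were taken by symbol from a fixed list, out of 59041 genes quantified. They are SPI1, CEBPA, CEBPB, CEBPD, CEBPE, IRF8, KLF4, GFI1 and RUNX1. RNA was sequenced from the human acute myeloid leukemia (AML) lines HL60, MOLM13 and OCIAML3, in 36 libraries, with 3 libraries labelled as biological replicates in each of 12 groups. In each line, cells were exposed for 24 h to 0.1 µM cytarabine, to 0.02 µM daunorubicin, to the combination at these doses, or to the solvent DMSO. Cytarabine is a nucleoside analog that is built into replicating DNA, and daunorubicin is an anthracycline that binds DNA and blocks topoisomerase II. HL60 and MOLM13 were grown in RPMI and OCIAML3 in alpha-MEM, all with fetal bovine serum, at a higher percentage for OCIAML3. Where OCIAML3 is compared with another line, medium and serum cannot be told apart from line. The labels give the genotype of every line as WT. Each line descends from a single patient and stands for that leukemia alone.

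PU.1, the product of SPI1, is an ETS factor needed for both myeloid branches, and C/EBP alpha, the product of CEBPA, opens the granulocyte program and slows division. CEBPB, CEBPD and CEBPE encode relatives that bind the same DNA motif: C/EBP beta acts in stress-driven granulocyte production and in macrophages, C/EBP delta in inflammatory responses, and C/EBP epsilon in late granulocyte maturation and secondary granule genes. IRF8 and KLF4 favor monocytes, GFI1 is a repressor that favors granulocytes, and RUNX1 is the DNA-binding part of core-binding factor and is often mutated in AML.

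Summed over all transcripts, including those not matched to a gene, the libraries held between 25067734 and 47322144 estimated counts, with a median of 32194478. Of the myeloid markers, CD33, MPO, LYZ and CSF3R averaged at least 1 CPM in every group of all 3 lines. CPM is counts relative to library size, scaled by TMM over all 36 libraries. ELANE, an enzyme of granulocyte granules, averaged 0.145 CPM in HL60 treated with DMSO, and MPO averaged 2.24 CPM in OCIAML3 treated with DMSO. In OCIAML3, the libraries labelled cytarabine replicate 3 and combination replicate 3 stood apart from the other replicates of their groups. Results that rest on them are therefore given with and without both.

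Sequences just upstream of transcription starts are shown for CEBPB, KLF4, CEBPA and CEBPE, each of which was called in at least 1 comparison, and for both RUNX1 promoters. Each is the 250 bases before the start on the gene's strand, 5′ to 3′, from RefSeq on GRCh38.p14 except the distal RUNX1 promoter, which was read from the hg38 genome. Capitals mark matches, on either strand, to TGACG (the half-site of the cyclic AMP response element), GAGGAA (PU.1) or TTCNNNGAA (the STAT motif known as GAS). The positions are chr20:50190580-50190829 (+) for CEBPB, chr9:107489770-107490019 (−) for KLF4, chr19:33302535-33302784 (−) for CEBPA, chr14:23119256-23119505 (−) for CEBPE, chr21:34888700-34888949 (−) for proximal RUNX1 and chr21:35049303-35049552 (−) for distal RUNX1.
CEBPB promoter: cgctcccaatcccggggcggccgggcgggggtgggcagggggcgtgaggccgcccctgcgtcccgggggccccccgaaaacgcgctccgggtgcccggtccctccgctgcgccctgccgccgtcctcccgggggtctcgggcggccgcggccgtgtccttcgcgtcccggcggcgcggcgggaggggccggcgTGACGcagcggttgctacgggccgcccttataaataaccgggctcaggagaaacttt
KLF4 promoter: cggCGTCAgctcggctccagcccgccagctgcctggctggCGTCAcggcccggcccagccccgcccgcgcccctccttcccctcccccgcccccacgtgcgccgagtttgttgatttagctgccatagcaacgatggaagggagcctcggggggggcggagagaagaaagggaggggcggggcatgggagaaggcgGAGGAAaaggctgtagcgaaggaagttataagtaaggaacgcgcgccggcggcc
CEBPA promoter: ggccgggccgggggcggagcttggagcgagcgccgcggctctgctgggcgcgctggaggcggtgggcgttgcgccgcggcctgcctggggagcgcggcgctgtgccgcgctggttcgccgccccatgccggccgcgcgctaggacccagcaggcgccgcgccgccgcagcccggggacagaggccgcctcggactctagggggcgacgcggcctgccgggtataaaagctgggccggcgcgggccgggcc
CEBPE promoter: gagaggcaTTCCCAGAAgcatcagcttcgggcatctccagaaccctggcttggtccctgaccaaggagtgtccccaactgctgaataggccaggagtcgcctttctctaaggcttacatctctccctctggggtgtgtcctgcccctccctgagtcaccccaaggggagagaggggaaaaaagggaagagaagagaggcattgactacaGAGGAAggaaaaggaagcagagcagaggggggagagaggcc
RUNX1 proximal promoter: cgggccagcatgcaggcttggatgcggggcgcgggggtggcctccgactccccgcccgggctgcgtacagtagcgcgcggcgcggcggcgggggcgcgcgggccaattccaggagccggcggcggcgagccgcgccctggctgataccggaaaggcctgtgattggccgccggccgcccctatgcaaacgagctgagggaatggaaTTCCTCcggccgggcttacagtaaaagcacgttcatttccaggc
RUNX1 distal promoter: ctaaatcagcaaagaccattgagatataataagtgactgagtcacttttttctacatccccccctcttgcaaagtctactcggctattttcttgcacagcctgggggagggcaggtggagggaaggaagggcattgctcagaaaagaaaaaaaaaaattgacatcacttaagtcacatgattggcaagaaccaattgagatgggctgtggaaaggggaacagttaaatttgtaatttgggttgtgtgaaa

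Of 8 members looked up, 7 had a promoter in the RefSeq table, and SPI1 did not. The windows listed for IRF8 lie inside the annotated gene, past its first base, and are not shown. The windows shown for KLF4, CEBPE and RUNX1 also lie inside their annotated genes, before a start that is not the outermost. The CEBPB window held 1 TGACG, at base 194. The KLF4 window held TGACG at bases 4 and 41, read on the opposite strand, and GAGGAA at base 197. The CEBPE window held TTCNNNGAA at base 9 and GAGGAA at base 210, and the proximal RUNX1 window held GAGGAA at base 207 on the opposite strand. No match was found in the windows of CEBPA and distal RUNX1. TGACG occurred in 21.2%, GAGGAA in 23.6% and TTCNNNGAA in 6.57% of 34788 RefSeq promoters of the same length. The C/EBP motif TTGCNNAA (9.05% of all promoters) and the RUNX motifs TGTGGT or TGCGGT (16.3%) had no match in these 6 windows. A match is a description of the letters and not evidence of binding.

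With DMSO alone, the lines carried very different sets of these factors. HL60 had no IRF8, hardly any KLF4 and abundant CEBPE. OCIAML3 had the highest IRF8, KLF4, CEBPB and CEBPD and hardly any CEBPE, while MOLM13 had about as much IRF8 as CEBPA, the lowest CEBPB and the highest RUNX1. In bulk RNA, fewer cells of a type and less RNA per cell cannot be told apart.

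**Figure D1:**
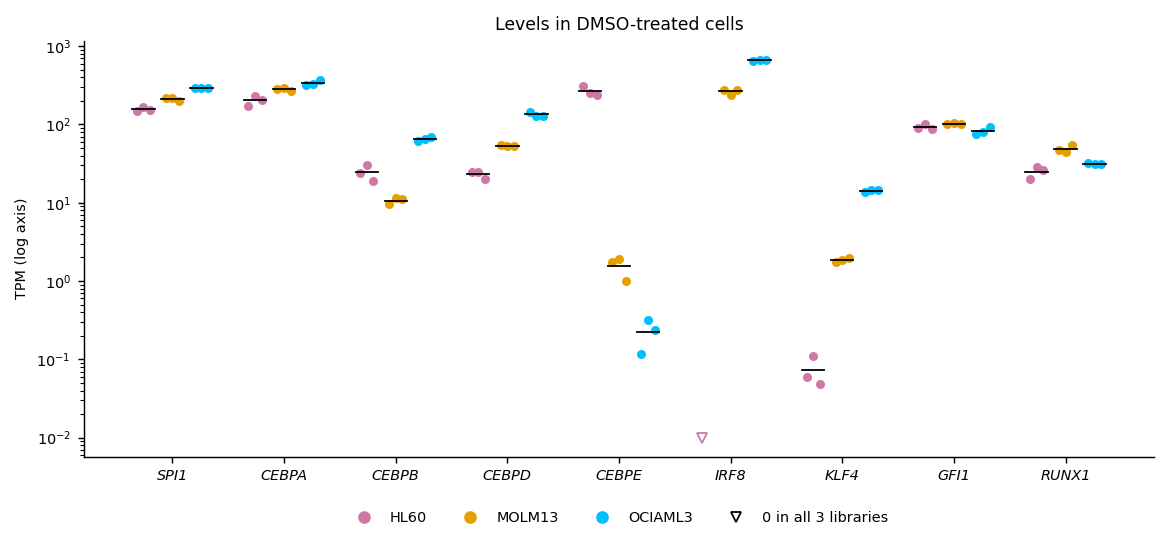
TPM (transcript abundance per unit of transcript length, log axis) of the 9 members in the DMSO libraries of HL60, MOLM13 and OCIAML3, with points for libraries, lines for means and an open triangle for 0 in all 3 libraries. CEBPE leads in HL60 at a mean of 266 TPM, CEBPA in MOLM13 at 281 TPM and IRF8 in OCIAML3 at 662 TPM, and IRF8 is listed at 0 in HL60.

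Levels of different genes are compared per length, in TPM. In HL60 with DMSO, CEBPE stood highest at 266 ± 41.0 TPM (SD, n = 3), followed by CEBPA at 203 ± 31.2, SPI1 at 157 ± 10.5 and GFI1 at 93.2 ± 7.17 TPM, with no overlap between neighbors. RUNX1, CEBPB and CEBPD followed at 25.1, 24.6 and 23.2 TPM and did not differ beyond their spread. KLF4 averaged 0.0731 TPM and IRF8 was at 0. In MOLM13 with DMSO, CEBPA at 281 ± 10.6 TPM and IRF8 at 265 ± 22.5 TPM overlapped, and SPI1 came next at 212 ± 11.9 TPM. Below them stood GFI1 at 102, CEBPD at 53.7 and RUNX1 at 48.6 TPM, of which the last pair overlapped, then CEBPB at 10.6 TPM, and KLF4 at 1.86 and CEBPE at 1.55 TPM, which also overlapped. OCIAML3 with DMSO had all 9 members apart, led by IRF8 at 662 ± 13.9 TPM, CEBPA at 338 ± 23.2 and SPI1 at 294 ± 4.51 TPM. There, CEBPD reached 134, GFI1 82.8, CEBPB 66.0, RUNX1 31.7 and KLF4 14.2 TPM, and CEBPE was last at 0.223 TPM.

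A gene was called different where the false discovery rate (FDR, the adjusted p of edgeR's quasi-likelihood test over all genes) was under 0.05 and the log2 fold change was over 1 in size. Between HL60 and OCIAML3 with DMSO, 1 of 9 members was called higher and 4 were called lower in HL60, where 12.5% and 25.8% of all 16532 tested genes were. Between MOLM13 and OCIAML3 the members also numbered 1 higher and 4 lower, beside 13.1% and 17.8% of all genes. Between HL60 and MOLM13 they numbered 2 higher and 3 lower, beside 9.9% and 20.7% of all genes. The median log2 fold change of the members was -0.52, -0.19 and -0.39 in these comparisons, beside -0.09, -0.01 and -0.03 for all genes. By FDR alone, 8 of 9 members passed in each, beside 71.9%, 64.3% and 63.2% of all genes.

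The monocyte factors IRF8 and KLF4 were lowest in HL60 and highest in OCIAML3. Of all members, IRF8 separated HL60 most from the other lines. IRF8 had 0 counts in all 12 HL60 libraries. It had 629, 557 and 637 CPM in MOLM13 with DMSO, and 1188, 1278 and 1219 CPM in OCIAML3 with DMSO. Set against a floor of 3 counts per library, IRF8 in HL60 was at least 5004-fold lower than in MOLM13 and at least 10670-fold lower than in OCIAML3. MOLM13 was also below OCIAML3 in IRF8, by a log2 fold change of -1.06 ± 0.07 (SE, adjusted p = 7.88e-07). Without MOLM13 DMSO replicate 2 this value was -0.999 and no longer passed the fold threshold. KLF4 had 3, 2 and 1 counts in the HL60 DMSO libraries, 6 in sum, against 411 in MOLM13 and 3295 in OCIAML3. The ratio of KLF4 in HL60 to KLF4 in MOLM13 was 0.0143 (95% interval 0.00521 to 0.0313, counting error only), and to KLF4 in OCIAML3 it was 0.00225 (0.000824 to 0.00489). MOLM13, at 4.30, 5.50 and 4.68 CPM of KLF4, lay below OCIAML3, at 29.1, 32.1 and 30.4 CPM, with a log2 fold change of -2.71 ± 0.14 (adjusted p = 1.71e-08).

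CEBPE had the reverse order. It had 328, 211 and 225 CPM in HL60, 1.73, 2.00 and 1.02 CPM in MOLM13 and 0.0943, 0.273 and 0.191 CPM in OCIAML3, all with DMSO. HL60 exceeded MOLM13 by a log2 fold change of 7.33 ± 0.24. Against OCIAML3, where CEBPE had 21 counts in sum, HL60 was 1286 times higher (95% interval 841 to 2078) and MOLM13 was 8.11 times higher (5.10 to 13.5). CEBPE in OCIAML3 was thus close to the detection limit.

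The other C/EBP genes followed no common order. CEBPB had 57.4, 58.5 and 39.4 CPM in HL60, 19.1, 23.7 and 21.7 CPM in MOLM13 and 99.9, 121 and 110 CPM in OCIAML3. HL60 was above MOLM13 (log2 fold change 1.28 ± 0.15, adjusted p = 1.26e-05) and below OCIAML3 (-1.12 ± 0.14, adjusted p = 1.88e-05). Without HL60 DMSO replicate 3 the difference from OCIAML3 was -0.95 and was not called. MOLM13 was below OCIAML3 by -2.40 ± 0.15 (adjusted p = 7.39e-08). CEBPD averaged 31.3 ± 5.32 CPM in HL60, 69.6 ± 2.88 in MOLM13 and 142 ± 11.2 CPM in OCIAML3 (SD, n = 3 each), so that HL60 was lowest and OCIAML3 highest, and all 3 pairs of lines were called. CEBPA was lower in HL60 than in MOLM13 (-0.39, adjusted p = 0.000499) and OCIAML3 (-0.41, adjusted p = 0.00029), below the fold threshold, and between MOLM13 and OCIAML3 it had a log2 fold change of -0.02.

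SPI1 and GFI1, like CEBPA, differed between lines by less than the fold threshold, and RUNX1 reached about that size in MOLM13. SPI1 averaged 202 ± 10.5 CPM in HL60, 256 ± 18.5 in MOLM13 and 284 ± 7.74 CPM in OCIAML3, with log2 fold changes from -0.52 to -0.19. GFI1 averaged 230 ± 11.7, 244 ± 6.67 and 166 ± 13.1 CPM in the same lines, and did not pass between HL60 and MOLM13 (-0.07, adjusted p = 0.381). RUNX1 had 105, 121 and 120 CPM in HL60, 221, 225 and 253 CPM in MOLM13 and 130, 132 and 120 CPM in OCIAML3. Its level in HL60 was below that in MOLM13 by -0.997 ± 0.08 (adjusted p = 4.56e-07), just inside the fold threshold and so not called. Leaving out HL60 DMSO replicate 2 or 3, or MOLM13 DMSO replicate 1 or 2, gave values from -1.04 to -1.02, which were called. MOLM13 exceeded OCIAML3 in RUNX1 by 0.83 ± 0.08 (adjusted p = 2.18e-06).

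**Figure D2:**
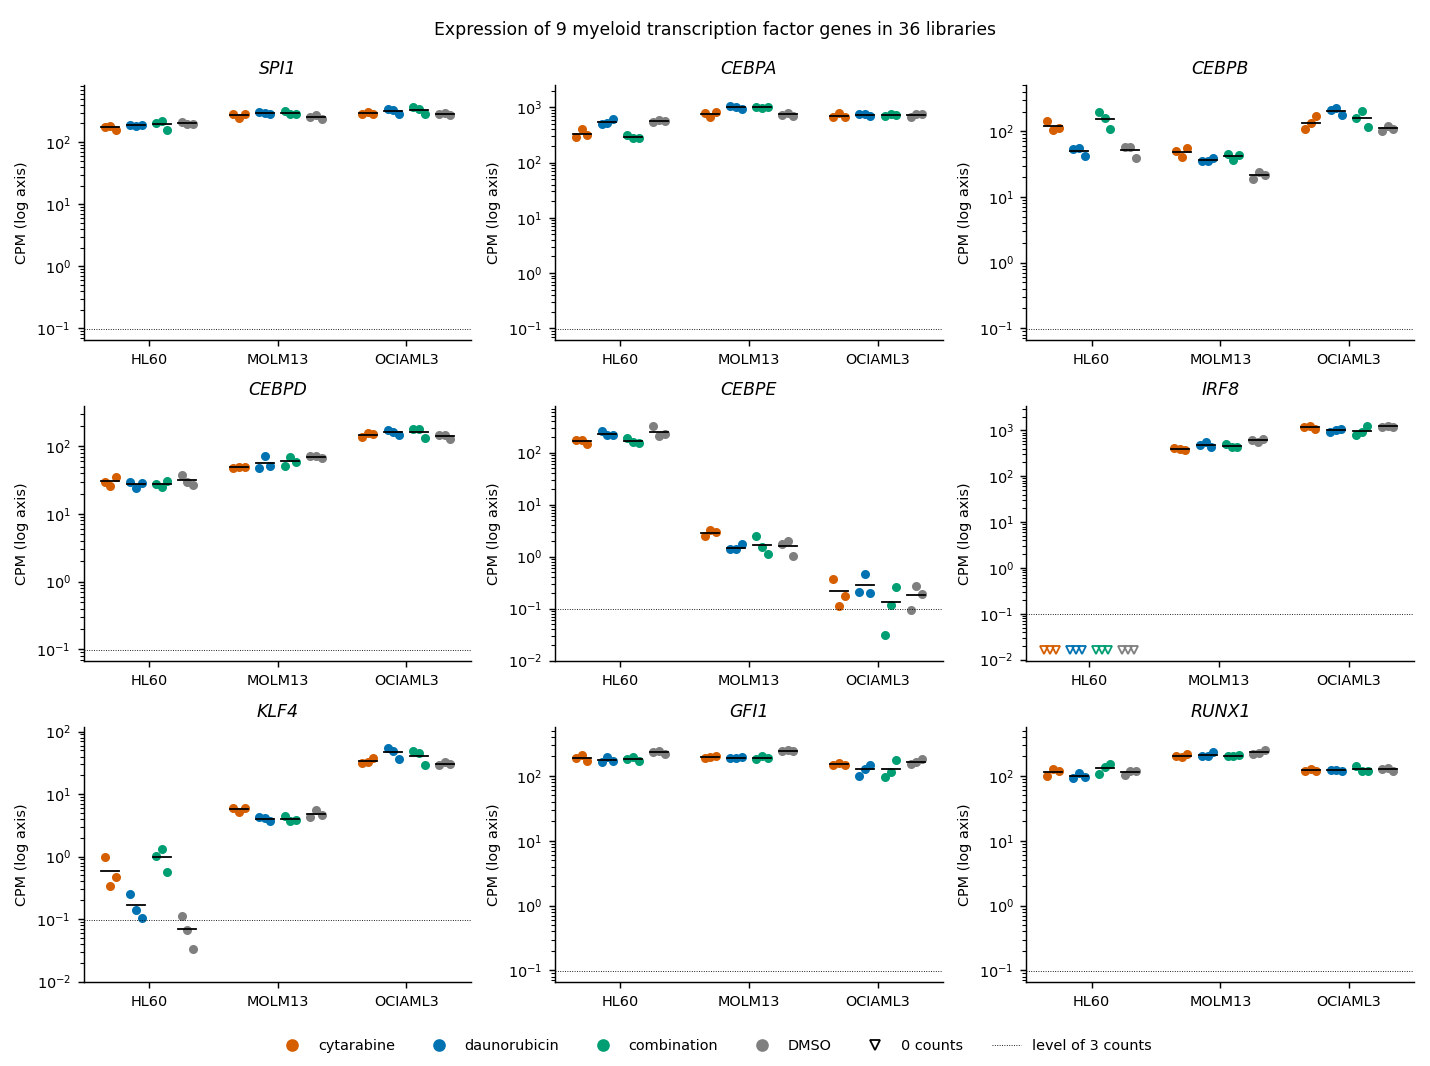
CPM of each member (1 panel per gene, log axis) in the libraries of each line, in the order cytarabine, daunorubicin, combination and DMSO, with points for libraries, short lines for means, open triangles for 0 counts and a dotted line at the level of 3 counts. CEBPB lies above DMSO in HL60 after cytarabine and the combination and in MOLM13 after all 3 treatments, and KLF4 in HL60 stays at 1.32 CPM or less.

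In HL60, cytarabine raised CEBPB and KLF4 and lowered CEBPA, CEBPE and GFI1, and the combination moved the same 5 genes in the same directions. Daunorubicin lowered GFI1 and moved no other member past the FDR threshold. After cytarabine, 2 of 8 members tested were called higher and 0 lower, where 13.7% and 3.12% of all 15608 tested genes were called. After the combination the count was 2 higher and 1 lower, beside 17% and 6.29% of all genes. KLF4, 1 of the 2 members called higher each time, passed the count filter only through the cytarabine and combination libraries. It could therefore be called higher there but not lower. After daunorubicin no member was called by edgeR or by DESeq2, beside 6.76% higher and 0.538% lower of all genes by edgeR. There, 1 member (GFI1) had an unadjusted p under 0.05, beside 5544 of all 15608 genes. By FDR alone, 5, 1 and 5 members passed for cytarabine, daunorubicin and the combination, beside 45.6%, 21.9% and 53.3% of all genes. IRF8 was not tested, being at 0 in every HL60 library. The median log2 fold change of tested members was -0.19, -0.15 and -0.18 in the same order, beside 0.01, 0.01 and 0.04 for all genes.

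CEBPB, the C/EBP gene of stress responses, had 146, 106 and 112 CPM in HL60 after cytarabine, 54.6, 56.0 and 42.2 CPM after daunorubicin, 193, 157 and 107 CPM after the combination and 57.4, 58.5 and 39.4 CPM with DMSO. Every cytarabine and combination library lay above every DMSO library, while the daunorubicin and DMSO libraries overlapped. The log2 fold change was 1.18 ± 0.21 after cytarabine (adjusted p = 0.000534), 1.50 ± 0.21 after the combination (adjusted p = 5.51e-05) and -0.05 after daunorubicin. CEBPA, the granulocyte factor, had 286, 400 and 318 CPM after cytarabine, 501, 515 and 606 CPM after daunorubicin, 312, 284 and 279 CPM after the combination and 538, 586 and 567 CPM with DMSO. Its cytarabine and combination libraries were all below the DMSO libraries. The log2 fold change was -0.80 ± 0.13 after cytarabine (adjusted p = 0.000219), below the fold threshold, and -1.01 ± 0.13 after the combination (adjusted p = 2.18e-05), just past it. Without DMSO replicate 2 (-0.98), combination replicate 2 (-0.99) or combination replicate 3 (-0.99) the combination value was no longer past the fold threshold.

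KLF4, a monocyte factor, was near the detection limit in HL60. It had 30, 11 and 16 estimated counts in the cytarabine libraries, 7, 5 and 3 counts in the daunorubicin libraries, 38, 52 and 18 counts in the combination libraries and 3, 2 and 1 with DMSO. The cytarabine and combination libraries all exceeded the DMSO libraries, and the daunorubicin libraries reached down to the DMSO range. Summed over replicates and scaled for depth, KLF4 was 8.53 times its DMSO level after cytarabine (95% interval 3.69 to 24.2, counting error only), 2.36 times after daunorubicin (0.865 to 7.43) and 14.5 times after the combination (6.45 to 40.4). The quasi-likelihood test gave adjusted p = 0.00224 after cytarabine and 0.000295 after the combination, and 0.276 after daunorubicin. With an offset for transcript length, KLF4 did not pass after cytarabine (adjusted p = 0.0855) and did after the combination (adjusted p = 0.0133). KLF4 had at most 1.32 CPM in any treated HL60 library, below every MOLM13 library.

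CEBPE, the late granulocyte factor that HL60 carried in abundance, had 174, 176 and 148 CPM after cytarabine, 263, 216 and 219 CPM after daunorubicin, 193, 159 and 152 CPM after the combination and 328, 211 and 225 CPM with DMSO. It fell by 0.66 on the log2 scale after both cytarabine (adjusted p = 0.00355) and the combination (adjusted p = 0.003), with DMSO replicate 1 well above the other DMSO libraries. GFI1 had 190, 211 and 170 CPM after cytarabine, 164, 195 and 171 CPM after daunorubicin, 179, 193 and 169 CPM after the combination and 230, 242 and 218 CPM with DMSO. All treated libraries lay below all DMSO libraries, and GFI1 fell by 0.32, 0.41 and 0.41 on the log2 scale (adjusted p = 0.022, 0.0151 and 0.00463). SPI1, CEBPD and RUNX1 did not pass in HL60: their log2 fold changes ran between -0.28 (SPI1 after cytarabine, adjusted p = 0.0646) and 0.13 (RUNX1 after the combination). With the replicate number as a block, SPI1 after cytarabine (adjusted p = 0.0214) and RUNX1 after daunorubicin (-0.23, adjusted p = 0.041) passed the FDR threshold in HL60, under the fold threshold.

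**Figure D3:**
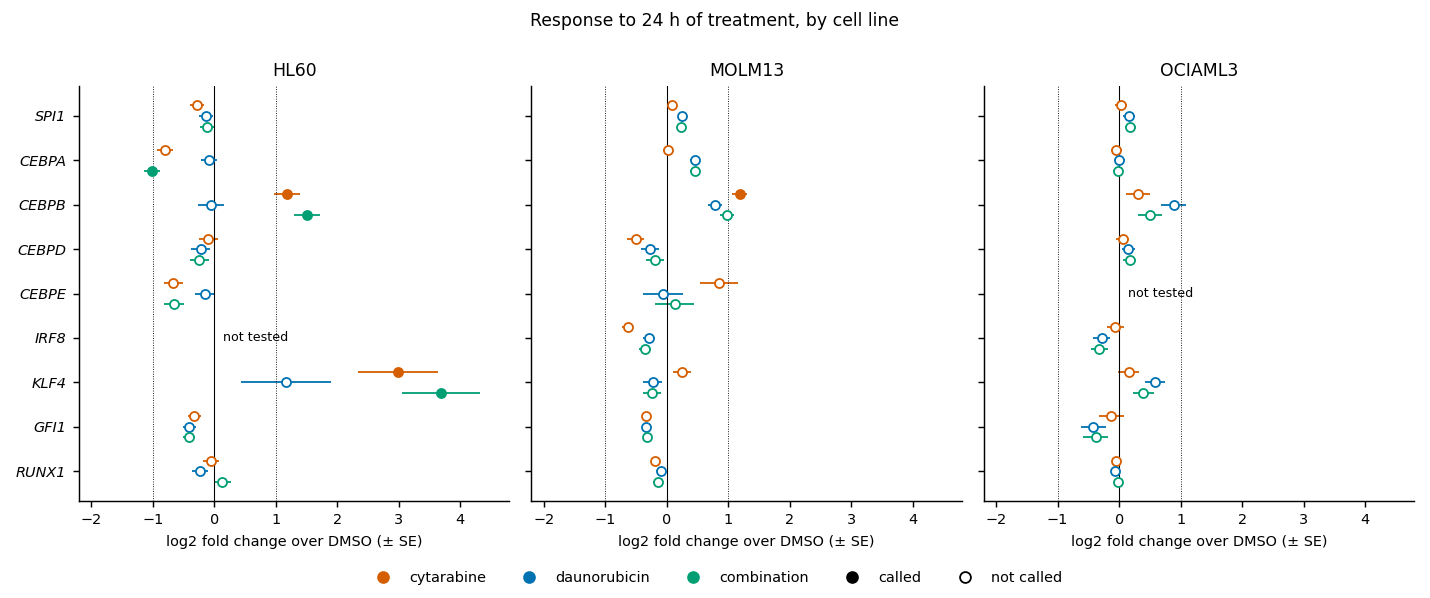
Log2 fold change against DMSO of each member in each line after cytarabine, daunorubicin and the combination, with standard errors, filled symbols for called genes and dotted lines at the fold threshold. CEBPB lies above 0 in all but HL60 after daunorubicin, and CEBPA is below 0 in HL60 after the combination (-1.01) and above 0 in MOLM13 after daunorubicin (0.46).

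In MOLM13, CEBPB rose after all 3 treatments while IRF8 and GFI1 fell. CEBPA and SPI1 rose with daunorubicin and with the combination but not with cytarabine, and CEBPD fell with cytarabine. After cytarabine 1 of 9 members was called higher, where 7.11% of all 16184 tested genes were, and none was called lower (1.03% of all genes). After daunorubicin and the combination no member was called by edgeR or DESeq2, beside 11.3% higher and 5.71% lower of all genes for daunorubicin and 11.8% and 5.61% for the combination. In each, 5 members had an unadjusted p under 0.05, beside 9467 (daunorubicin) and 9497 (combination) of all 16184 genes. By FDR alone, 4, 5 and 5 members passed for the 3 treatments, beside 34.9%, 52.7% and 53.1% of all genes. The median log2 fold change of the members was 0.02, -0.10 and -0.15 after the 3 treatments, beside 0.02, 0.07 and 0.07 for all genes.

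CEBPB had 50.7, 41.1 and 54.8 CPM in MOLM13 after cytarabine, 35.3, 34.8 and 38.6 CPM after daunorubicin, 45.0, 37.0 and 42.9 CPM after the combination and 19.1, 23.7 and 21.7 CPM with DMSO. No treated library overlapped the DMSO libraries. The log2 fold change was 1.18 ± 0.12 after cytarabine (adjusted p = 7.52e-05), 0.78 ± 0.12 after daunorubicin (adjusted p = 0.000235) and 0.98 ± 0.12 after the combination (adjusted p = 5.65e-05). For the combination, CEBPB was called without DMSO replicate 2 (1.05) or without combination replicate 2 (1.03). IRF8 had 404, 390 and 378 CPM after cytarabine, 477, 552 and 433 CPM after daunorubicin, 517, 444 and 442 CPM after the combination and 629, 557 and 637 CPM with DMSO. Again no treated library overlapped DMSO, and IRF8 fell by 0.64, 0.29 and 0.35 on the log2 scale (adjusted p = 0.000441, 0.0209 and 0.00734).

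CEBPA had 795, 657 and 812 CPM in MOLM13 after cytarabine, 1058, 1016 and 944 CPM after daunorubicin, 1022, 975 and 1007 CPM after the combination and 732, 801 and 704 CPM with DMSO. Cytarabine and DMSO libraries overlapped (log2 fold change 0.02), and daunorubicin and combination libraries lay above DMSO, by 0.46 ± 0.08 (adjusted p = 0.000634) and 0.45 (adjusted p = 0.00073). SPI1 averaged 299 ± 10.9 CPM after daunorubicin and 296 ± 19.4 CPM after the combination, against 256 ± 18.5 CPM with DMSO (log2 fold changes 0.25 and 0.24, adjusted p = 0.0102 and 0.015). GFI1 averaged 194 ± 8.10, 190 ± 2.83 and 191 ± 9.12 CPM after cytarabine, daunorubicin and the combination, against 244 ± 6.67 CPM with DMSO, and fell by 0.33 on the log2 scale each time (adjusted p = 0.00114, 0.000513 and 0.000556). CEBPD averaged 48.9 ± 1.25 CPM after cytarabine, against 69.6 ± 2.88 CPM with DMSO (-0.51 ± 0.15, adjusted p = 0.0189), and its daunorubicin and combination libraries overlapped DMSO. CEBPE stayed at 3.19 CPM or less in MOLM13, and without DMSO replicate 2 it was called higher after cytarabine (1.05, adjusted p = 0.0469), against 0.85 ± 0.31 (adjusted p = 0.0554) with all libraries. KLF4 and RUNX1 did not pass in MOLM13.

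In OCIAML3, no member passed the FDR threshold after any treatment, and 0% of all 16650 tested genes were called. Members with an unadjusted p under 0.05 numbered 0 for cytarabine, 2 for daunorubicin (CEBPB and KLF4) and 3 for the combination (CEBPB, IRF8 and KLF4). In the same order, 255, 5086 and 3873 of all 16650 genes had such a p. DESeq2 called no member either, but over all genes it called 1 higher and 0 lower for cytarabine, 298 and 26 for daunorubicin and 6 and 2 for the combination. By DESeq2, CEBPB and KLF4 after daunorubicin passed the FDR threshold alone (adjusted p = 0.00419 and 0.0268). CEBPE was not kept by the filter.

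CEBPB had 107, 132 and 169 CPM in OCIAML3 after cytarabine, 214, 228 and 178 CPM after daunorubicin, 161, 201 and 114 CPM after the combination and 99.9, 121 and 110 CPM with DMSO. The daunorubicin libraries all exceeded DMSO, while the library labelled combination replicate 3, at 114 CPM, lay among the DMSO libraries and the library labelled cytarabine replicate 3 was the highest of its group. KLF4 had 32.0, 32.9 and 37.2 CPM after cytarabine, 53.9, 48.9 and 36.5 CPM after daunorubicin, 48.5, 44.8 and 29.3 CPM after the combination and 29.1, 32.1 and 30.4 CPM with DMSO. IRF8 had 1182, 1271 and 1085 CPM after cytarabine, 937, 1042 and 1083 CPM after daunorubicin, 813, 942 and 1232 CPM after the combination and 1188, 1278 and 1219 CPM with DMSO. In both genes the library labelled combination replicate 3 again fell within the DMSO range and apart from combination replicates 1 and 2. With all libraries, CEBPB had a log2 fold change of 0.89 ± 0.20 after daunorubicin (adjusted p = 0.122) and 0.50 after the combination (adjusted p = 0.209), and KLF4 had 0.58 (adjusted p = 0.122) and 0.39 (adjusted p = 0.21).

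Without the libraries labelled cytarabine replicate 3 and combination replicate 3, members passed the FDR threshold, none of them past the fold threshold. The standard error of CEBPB after daunorubicin was 0.12 in that fit, against 0.20 with all libraries. After daunorubicin, CEBPB rose by 0.88 (adjusted p = 0.00162) and KLF4 by 0.58 (adjusted p = 0.00558), and IRF8 fell by 0.29 (adjusted p = 0.0212) and GFI1 by 0.42 (adjusted p = 0.0379). After the combination, CEBPB rose by 0.68 (adjusted p = 0.00272), KLF4 by 0.57 (adjusted p = 0.00503), CEBPD by 0.28 (adjusted p = 0.0203) and SPI1 by 0.27 (adjusted p = 0.0195), while GFI1 fell by 0.68 (adjusted p = 0.00551) and IRF8 by 0.52 (adjusted p = 0.00162). In that fit, 610 of 16891 genes were called higher and 91 lower after daunorubicin, 996 and 331 after the combination, and 0 and 0 after cytarabine, where 312 genes had an unadjusted p under 0.05. The FDR threshold alone was passed by 15.3% (higher) and 16.0% (lower) of all genes after daunorubicin, and by 20.1% and 21.6% after the combination. CEBPA and RUNX1 did not pass in OCIAML3 in either fit.

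Differences between lines in the response were tested as an interaction. HL60 and MOLM13 differed in CEBPA after all 3 treatments. The HL60 effect minus the MOLM13 effect was -0.77 ± 0.14 for cytarabine (adjusted p = 0.000712), -0.49 ± 0.14 for daunorubicin (adjusted p = 0.0135) and -1.38 ± 0.14 for the combination (adjusted p = 5.32e-08), so that CEBPA was lowered in HL60 by the combination and raised in MOLM13. KLF4 differed by 2.79 ± 0.57 for cytarabine (adjusted p = 0.00195) and 4.02 ± 0.53 for the combination (adjusted p = 1.73e-06), on the few counts given above. With an offset for transcript length the cytarabine difference was 1.45 and did not pass (adjusted p = 0.277). CEBPE differed by -1.46 ± 0.35 for cytarabine (adjusted p = 0.00701). Counted past the fold threshold, 2 members differed for cytarabine, 0 for daunorubicin and 2 for the combination, beside 4%, 8.22% and 13.7% of all 19053 tested genes. By FDR alone the count was 3, 1 and 2, beside 8.38%, 20.5% and 27.4%. The comparisons for the 3 treatments share the DMSO libraries of each line.

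CEBPB after daunorubicin did not reach the threshold, at -0.77 for HL60 minus MOLM13 (adjusted p = 0.0557) and -0.93 for HL60 minus OCIAML3 (adjusted p = 0.0521). For HL60 minus OCIAML3, 1 member had an unadjusted p under 0.05, beside 3538 of all 19053 genes. Of all genes, 2.52% were called there and 5.21% passed by FDR alone. The difference from OCIAML3 was called without HL60 DMSO replicate 3 (-1.09) or OCIAML3 daunorubicin replicate 3 (-1.02). Without both OCIAML3 libraries that stood apart, the values were -0.77 (adjusted p = 0.0287) and -0.93 (adjusted p = 0.0226), under the fold threshold. Between MOLM13 and OCIAML3 after daunorubicin no member passed, and 3 had an unadjusted p under 0.05, beside 4812 of all 19053 genes. Of all genes, 3.28% were called in that comparison and 10.8% passed by FDR alone. Without both OCIAML3 libraries that stood apart, KLF4 passed, at -0.86 (adjusted p = 0.0494). DESeq2 called no member in any of these daunorubicin differences.

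The drugs were also compared with each other, at the single doses used. In HL60, cytarabine left CEBPB higher than daunorubicin by 1.23 ± 0.21 (adjusted p = 0.00318) and CEBPA lower by 0.72 on the log2 scale (adjusted p = 0.00353). CEBPE was lower by 0.51 (adjusted p = 0.0395). KLF4 was 3.61 times higher after cytarabine (95% interval 2.02 to 6.87, from 57 against 15 counts, adjusted p = 0.046), a call lost in 10 of 12 omissions of a single library. Its place in this test again came only through the cytarabine and combination libraries. In all, 2 members were called, beside 3.89% of all genes, and 4 passed by FDR alone, beside 16.5%. In MOLM13, CEBPB (0.40, adjusted p = 0.0271) and KLF4 (0.47, adjusted p = 0.0374) were higher after cytarabine than after daunorubicin, and CEBPA (-0.44, adjusted p = 0.00417) and IRF8 (-0.35, adjusted p = 0.0187) were lower, none past the fold threshold, where 5.25% of all genes were (26.1% by FDR alone).

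C/EBP beta and C/EBP alpha bind the same motif, and the ratio of their transcripts is shown for each library. In HL60, CEBPB reached 70.6%, 35.2% and 46.7% of the CEBPA level in TPM after cytarabine, 14.5%, 14.5% and 9.14% after daunorubicin, 86.0%, 74.4% and 49.4% after the combination and 14.2%, 13.2% and 9.13% with DMSO. Cytarabine and combination libraries were above all others in HL60, and replicate 3 was lowest after daunorubicin, the combination and DMSO. In MOLM13 the share averaged 8.49% ± 0.262 in cytarabine libraries, 4.76% ± 0.515 in daunorubicin libraries and 5.45% ± 0.404 in combination libraries, against 3.79% ± 0.366 with DMSO (SD, n = 3 each). In OCIAML3 it was 25.0% ± 6.67, 36.1% ± 3.04 and 28.5% ± 7.26 after the same treatments, against 19.5% ± 0.516 with DMSO. The cytarabine libraries there held 21.3%, 20.9% and 32.7% and the combination libraries 30.4%, 34.6% and 20.4%, so that replicate 3 departed from the others in both groups. The ratio is described without a test, since both genes entered the tests above.

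**Figure D4:**
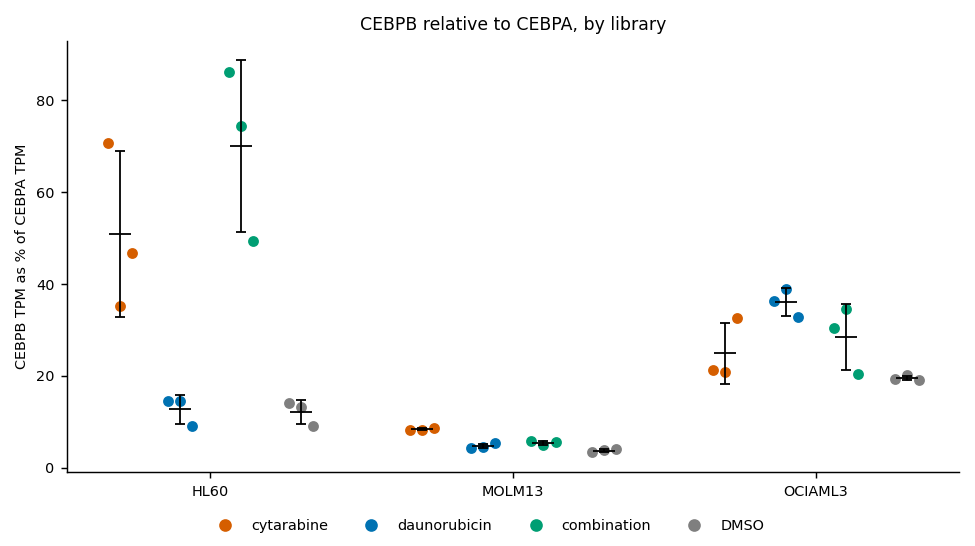
CEBPB level as a percent of the CEBPA level, both in TPM, for each library by line and treatment, with the mean and SD of 3 replicates. HL60 libraries after cytarabine or the combination lie between 35.2% and 86.0%, above the 9.13% to 14.2% of the DMSO libraries.

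RUNX1 has a distal and a proximal promoter, and its transcripts can be told apart by their start. Of 18 RUNX1 transcripts in the files, 11 start in the distal part of the locus and 4 at the proximal promoter. The distal share of RUNX1 TPM with DMSO was 32.9% ± 5.61 in HL60, 9.82% ± 2.37 in MOLM13 and 7.96% ± 0.857 in OCIAML3 (SD, n = 3). In HL60 the share was 20.2%, 15.1% and 17.7% after cytarabine, 23.2%, 20.7% and 33.2% after daunorubicin, 23.6%, 16.4% and 24.0% after the combination and 26.4%, 35.96% and 36.3% with DMSO. Cytarabine and combination libraries lay below all DMSO libraries. An exact two-sided permutation test gave p = 0.1 for each, the smallest that 3 against 3 libraries allow (0.225 after adjustment over 18 tests, n = 3). As a share of estimated counts the groups overlapped: 20.7%, 11.6% and 17.6% after cytarabine and 25.4%, 12.4% and 13.4% after the combination, against 16.1%, 25.2% and 24.4% with DMSO. The separation therefore depended on the unit. It was not confined to HL60. In OCIAML3 after cytarabine the distal TPM share, at a mean of 5.10% against 7.96% with DMSO, also lay below all DMSO libraries. The same permutation test gave p = 0.1 there, and by estimated counts these groups overlapped. MOLM13 after cytarabine and OCIAML3 after daunorubicin lay below all DMSO libraries by estimated counts but not by TPM.

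RUNX1-203, a proximal transcript that ends before the last exons of the longer forms (chr21:34821279-34888690), took a larger share in MOLM13 after cytarabine. It held 17.9%, 14.8% and 14.8% of RUNX1 TPM after cytarabine, 8.91%, 7.53% and 10.4% after daunorubicin, 9.61%, 2.98% and 2.91% after the combination and 4.59%, 3.31% and 3.85% with DMSO. Cytarabine and daunorubicin libraries lay above all DMSO libraries, and combination libraries did not. The exact permutation p was 0.1 for both (0.225 adjusted), which this design cannot go below. As a share of estimated counts, cytarabine libraries held 9.49%, 8.03% and 7.996%, against 2.31%, 1.58% and 1.96% with DMSO, again with no overlap. In HL60 the TPM share was 2.96%, 12.9% and 5.43% after cytarabine, against 1.79%, 2.68% and 1.51% with DMSO. The HL60 libraries after the combination, at a mean of 4.50% against 1.99% with DMSO, and the OCIAML3 libraries after daunorubicin, at 5.22% against 3.71% with DMSO, also lay above all DMSO libraries of their line, by TPM and by estimated counts. In the other 4 comparisons the groups overlapped. Over the whole gene, RUNX1 did not pass in any treatment in the tests above without the replicate block, and the shares are those Salmon assigned to each transcript.

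**Figure D5:**
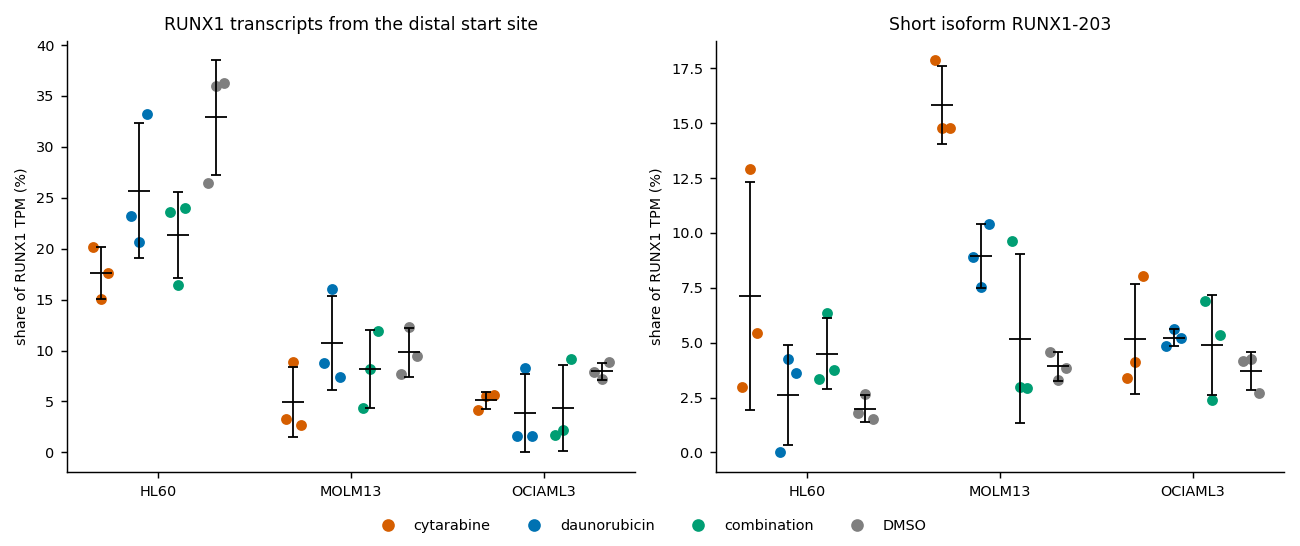
Share of RUNX1 TPM (percent) from transcripts that start in the distal part (left) and from RUNX1-203 (right), for each library by line and treatment, with the mean and SD of 3 replicates. Distal shares with DMSO are highest in HL60 (32.9%), and RUNX1-203 reaches 14.8% to 17.9% in MOLM13 after cytarabine.

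Other transcription factors of blood cells were followed as a list of 49 genes. In HL60, 11 of 42 tested were called higher and 1 lower with cytarabine, 4 and 0 with daunorubicin and 13 and 2 with the combination, where 13.7% and 3.12%, 6.76% and 0.538%, and 17% and 6.29% of all genes were. The list's median log2 fold change was 0.39, 0.01 and 0.42, beside the all-gene medians of 0.01, 0.01 and 0.04. KLF2, a quiescence factor of lymphocytes and monocytes, averaged 2.51 CPM after cytarabine, against 0.104 CPM with DMSO. EGR2, an immediate-early factor of macrophages, averaged 2.37 CPM after cytarabine, against 0.164 CPM with DMSO. The count filter includes the treated libraries, so genes this low with DMSO, KLF2 and EGR2 among them, could only be called higher. Such genes are part of the counts called higher above. MYB, which keeps progenitors dividing, averaged 141 CPM after the combination, against 314 CPM with DMSO (-1.22). CEBPZ, a C/EBP-related gene of ribosome assembly, averaged 95.0 CPM after cytarabine and 82.5 CPM after the combination, against 185 CPM with DMSO (-1.01 and -1.22). In MOLM13, 2 of 40 were called higher and 0 lower with cytarabine, 2 and 3 with daunorubicin and 1 and 3 with the combination, where 7.11% and 1.03%, 11.3% and 5.71%, and 11.8% and 5.61% of all genes were. GATA2, a stem and progenitor factor, averaged 32.6 CPM in MOLM13 after daunorubicin, against 67.3 CPM with DMSO (-1.02). In OCIAML3, edgeR called 0 of 43 and 0% of all genes. The list genes with an unadjusted p under 0.05 numbered 0 for cytarabine, 18 for daunorubicin and 12 for the combination. Over all 16650 genes such a p was found for 255, 5086 and 3873. Without both libraries that stood apart, 0, 1 and 3 of 44 were called higher and 0, 0 and 3 lower in the same order, where 0%, 3.61% and 5.9% of all genes were called higher and 0%, 0.539% and 1.96% lower. ERG, KLF2 and SPIB were those called lower.

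Genes known as targets of PU.1, C/EBP or IRF8 in myeloid cells were followed as a list of 19. In HL60, 6 of 17 tested were called higher and 2 lower with cytarabine, 5 and 0 with daunorubicin and 6 and 2 with the combination, beside the same shares of all genes in HL60 (13.7%, 6.76% and 17% higher). In MOLM13, 3 of 17 were called higher and 0 lower after cytarabine, and 6 and 1 after both daunorubicin and the combination, where 7.11%, 11.3% and 11.8% of all genes were called higher. In OCIAML3, edgeR called 0 of 18 and 0% of all genes. The list genes with an unadjusted p under 0.05 numbered 0, 8 and 8 in that order, beside 255, 5086 and 3873 of all 16650 genes. Without both libraries that stood apart, 0, 4 and 5 of 18 were called higher and 0, 0 and 2 lower after cytarabine, daunorubicin and the combination, beside the shares of all genes just given for that fit. Among them, CSF1R, CSF2RA and ITGAM were called higher after both daunorubicin and the combination, and CD14 after the combination. FCGR1A and PRTN3 were called lower after the combination. CSF1R, the receptor of macrophage growth factor, averaged 1.22 CPM in HL60 after cytarabine and 1.82 CPM after the combination, against 0.115 CPM with DMSO. At that DMSO level it passed the count filter through treated libraries and could only be called higher in HL60. ITGAM, the integrin CD11b of mature myeloid cells, averaged 25.9 ± 13.5 CPM after cytarabine, 12.2 ± 7.23 CPM after daunorubicin and 51.5 ± 21.7 CPM after the combination, against 3.42 ± 1.61 CPM with DMSO. The genes called lower in HL60 were both granule enzymes. MPO, myeloperoxidase, averaged 1274 ± 245 CPM after cytarabine and 681 ± 189 CPM after the combination, against 3441 ± 373 CPM with DMSO (-1.48 and -2.40). PRTN3, proteinase 3, averaged 129 CPM after cytarabine and 36.5 CPM after the combination, against 1494 CPM with DMSO. In MOLM13, ITGAM averaged 86.0 ± 28.5 CPM after cytarabine, against 20.7 ± 5.80 CPM with DMSO (2.05), and CSF1R averaged 69.6 ± 6.56 CPM after daunorubicin, against 26.4 CPM with DMSO (1.43).

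Of 8 secondary granule genes, which C/EBP epsilon activates, 2 were tested in HL60, and the others were too low to test. Both were called higher after cytarabine and after the combination, beside 13.7% and 17% of all genes. Neither was called after daunorubicin, beside 6.76% of all genes. Both averaged under 1 CPM with DMSO, and the count filter includes the treated libraries. MMP9 averaged 5.07 CPM after cytarabine and 10.4 CPM after the combination, against 0.365 CPM with DMSO, and CAMP averaged 0.757 and 0.807 CPM, against 0.126 CPM. CEBPE itself was lower in those samples, and a link to these 2 genes was not tested. The megakaryocyte marker ITGA2B in HL60 reached 2.56–9.46 CPM after the combination, against 0.497–1.08 CPM with DMSO, with GP9 and PF4 at 0. The part of such markers in the results was not tested.

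Genes whose levels moved most like each member were sought among 10245 protein-coding genes, by Pearson r of log2(CPM + 1) less the DMSO mean of the line, over all 36 libraries. The points share libraries and DMSO means, and the values are a description. CEBPB was most like UBALD2 (r = 0.929), LACC1 (0.923) and CDKN1A (0.918), the last being the cell cycle inhibitor induced by p53. KLF4 was most like PPARG (0.916), GCH1 (0.894) and PLAUR (0.893). CEBPA was most like MFSD1 (0.936), GRAMD4 (0.933) and C4orf3 (0.926). IRF8 was most like KCNA3 (0.953), KAZN (0.900) and COL8A2 (0.889). The best match was weaker for SPI1 (PLIN3, 0.870), CEBPE (ATP6V0E1, 0.867), GFI1 (SYPL1, 0.880), CEBPD (USP25, 0.749) and RUNX1 (AFDN, 0.765).

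The members lie on GRCh38 at chr11:47354860-47378547 (SPI1, − strand), chr19:33299934-33302534 (CEBPA, −), chr20:50190830-50192668 (CEBPB, +), chr8:47736913-47738164 (CEBPD, −), chr14:23117036-23120256 (CEBPE, −), chr16:85899116-85922606 (IRF8, +), chr9:107484852-107490482 (KLF4, −), chr1:92473043-92486925 (GFI1, −) and chr21:34787801-36004667 (RUNX1, −). The libraries carry no strand, so reads of CEBPB and of its antisense gene CEBPB-AS1 cannot be told apart where they overlap. The same holds for CEBPA with 2 unnamed genes on the opposite strand, KLF4 with 1, IRF8 with the microRNA gene MIR6774 and RUNX1 with 8 genes.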

How the data were processed

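Total RNA of 36 Trizol-lysed samples was sequenced by the authors as unstranded paired-end libraries. Per the labels and the study's methods, the authors checked reads with FastQC 0.11.9 and quantified them with Salmon 1.8.0 on the GRCh38 transcriptome of Ensembl (release not given in the sources used here). The deposited values are estimated counts per transcript, not normalized, and TPM, which the authors' Salmon run computed from those counts and effective transcript lengths.

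Of 252199 transcripts per library, 235378 were matched by identifier to 59041 GENCODE release 44 genes, and the 16821 unmatched ones held 3.99–4.52% of the counts. Gene sums of these counts were rounded to integers. In edgeR 4.0.16 (R 4.3.3), low genes were removed with filterByExpr (minimum count 10, minimum total 15), and libraries normalized by TMM and tested with glmQLFit and glmQLFTest in each line's 12 libraries, with p-values adjusted by Benjamini-Hochberg over all genes. DMSO comparisons used the 9 DMSO libraries, and differences between lines all 36. A standard error is the absolute log2 fold change over the root of F. Intervals of count ratios are exact, at 95%, and cover counting error only. DESeq2 1.42.0 was an alternative. Tests were checked on simulated data. Figures used matplotlib 3.10.9 in Python 3.11.15, with pandas 2.3.3 and numpy 2.4.6.

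Every member is reported. From the lists, up to 3 called genes per direction with the largest change were eligible as examples, and up to 3 genes most like each member. A few list and marker genes are not reported here. The members, lists and tests were chosen with earlier results of these data known. The labels call the samples biological replicates without giving separate cultures, and p-values therefore cover only the spread among them, which may be technical. No replicate pair agreed within sampling noise (chi-square per gene 6.81 to 181 over 36 pairs). Replicate numbers deviated together in HL60, where each of the 18 pairings had its highest correlation with its own number (0.105 to 0.382). This pairing comes from the data, not from the labels.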

Additional observations from a re-analysis of the deposited data

Results flagged for a closer look

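The effects of treatment differed between HL60 and MOLM13 in 6 results, each by an interaction test over all 36 libraries (edgeR quasi-likelihood, adjusted over 19053 genes, n = 3 per group). CEBPA differed after cytarabine by -0.77 ± 0.14 on the log2 scale (adjusted p = 0.000712), after daunorubicin by -0.49 ± 0.14 (adjusted p = 0.0135) and after the combination by -1.38 ± 0.14 (adjusted p = 5.32e-08). KLF4 differed after cytarabine by 2.79 ± 0.57 (adjusted p = 0.00195) and after the combination by 4.02 ± 0.53 (adjusted p = 1.73e-06), with 6 counts in sum in the HL60 DMSO libraries. With an offset for transcript length the cytarabine value was 1.45 (adjusted p = 0.277). CEBPE differed after cytarabine by -1.46 ± 0.35 (adjusted p = 0.00701), where MOLM13 had 3.19 CPM or less.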

How the results depend on the processing

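No value that passed the FDR threshold changed direction. Apart from omissions of single libraries, 1341 of 1381 values of members kept their direction and stayed called or not called. Of the rest, 4 became called and 6 lost their call. A value that crossed the FDR threshold without a change of call, as in OCIAML3 without both libraries that stood apart, counts as kept. The sign of the other 30 changed, and none of these passed the FDR threshold in either fit. Among 2967 values with a single library left out, 64 changed sign in the same way. With no fold threshold, the members that passed numbered 5, 1 and 5 after cytarabine, daunorubicin and the combination in HL60, 4, 5 and 5 in MOLM13, and 8 in each of the DMSO comparisons. They numbered 1 for the difference in daunorubicin effect between HL60 and MOLM13, and 4 for cytarabine against daunorubicin in HL60 and 4 in MOLM13. With an offset for transcript length, 1 member was called after cytarabine in HL60, 1 for the difference in cytarabine effect and 1 for cytarabine against daunorubicin in HL60. KLF4 was the member lost each time, at 1.78 (adjusted p = 0.0855), 1.45 (adjusted p = 0.277) and 1.42 (adjusted p = 0.188), and the cause was not tested. With the stricter filter of at least 1 CPM in 3 libraries, 1 member, CEBPB at 1.01, was called after the combination in MOLM13. CEBPA after the combination in HL60 was not called with the stricter filter (-0.98), the length offset (-0.97) or all 36 libraries in 1 fit (-0.95). RUNX1 between HL60 and MOLM13 was called with no filter (-1.01), the stricter filter (-1.003) or all 36 libraries (-1.01).

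Leaving out each replicate in turn, the count of members called lay between 2 and 2, 0 and 0, and 2 and 3 after cytarabine, daunorubicin and the combination in HL60, between 1 and 2, 0 and 0, and 0 and 1 in MOLM13, and between 0 and 0 in OCIAML3. It lay between 4 and 5 for HL60 against OCIAML3, 4 and 5 for MOLM13 against OCIAML3 and 5 and 6 for HL60 against MOLM13 with DMSO. For the differences between HL60 and MOLM13 it lay between 2 and 2, 0 and 0, and 2 and 2, for daunorubicin between HL60 and OCIAML3 between 0 and 1, and between MOLM13 and OCIAML3 between 0 and 0. For cytarabine against daunorubicin it lay between 1 and 2 in HL60 (KLF4 at 1.26 to 2.20, adjusted p = 0.052 to 0.212 where lost) and between 0 and 0 in MOLM13.

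With the replicate number as a block, the count of members called was 2, 0 and 3 in HL60, 1, 0 and 0 in MOLM13, 0 in OCIAML3, 5 in each DMSO comparison, 2, 0 and 2 for the differences between HL60 and MOLM13 and 2 for cytarabine against daunorubicin in HL60, and no call of a member changed. In HL60, SPI1 after cytarabine (-0.28, adjusted p = 0.0214) and RUNX1 after daunorubicin (-0.23, adjusted p = 0.041) passed the FDR threshold in that fit, under the fold threshold. In MOLM13 and OCIAML3, same-numbered libraries deviated together in part. The highest correlation was with the own number in 13 of 18 pairings in MOLM13 (single pairings -0.0115 to 0.390). In OCIAML3 it was so in 12 of 18 (-0.283 to 0.484). Pooled over replicate numbers, the correlation of 2 groups was 0.0276 to 0.201 in MOLM13 and -0.171 to 0.376 in OCIAML3. Depth limits KLF4 in HL60 and CEBPE in OCIAML3, and 3 replicates per group limit the tests of RUNX1 shares.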

Other observations

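Other blood factors were compared between the lines with DMSO. Of 45 tested, 7 were called higher and 19 lower in HL60 than in OCIAML3, 4 higher and 10 lower in MOLM13 than in OCIAML3, and 7 higher and 12 lower in HL60 than in MOLM13, beside 12.5% and 25.8%, 13.1% and 17.8%, and 9.9% and 20.7% of all genes. GATA2, a stem and progenitor factor, averaged 233 ± 36.5 CPM in HL60, 67.3 ± 2.84 CPM in MOLM13 and 1.45 ± 0.203 CPM in OCIAML3 (SD, n = 3 each). MEF2C, a factor of lymphoid and monocyte progenitors, had 0 counts in the HL60 DMSO libraries, and averaged 264 ± 43.2 CPM in MOLM13 and 134 ± 18.3 CPM in OCIAML3. TFEC, a macrophage factor, averaged 45.9 ± 0.685 CPM in MOLM13 and 2.13 ± 0.460 CPM in OCIAML3. TRIB2, which directs C/EBP alpha to degradation, averaged 19.3 ± 2.51 CPM in HL60, 0.0476 CPM in MOLM13 and 22.1 ± 1.70 CPM in OCIAML3. BATF3, a dendritic cell factor, averaged 0.552 ± 0.260 CPM in MOLM13 after daunorubicin and 0.621 ± 0.209 CPM after the combination, against 2.64 ± 0.413 CPM with DMSO.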
